A study of Brassica napus with 18 samples.

Results

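R5161 is an oilseed rape (Brassica napus) accession that carries haplotype 1 of BnaC3.LFY, a LEAFY gene of chromosome C03. Its shoot apex transcriptome was set against those of R5044 and R5159, the other haplotype 1 accessions of the series, which are called its sisters here because of the shared haplotype and not because of any known pedigree. The members were the libraries that the labels name R5161, R5044 and R5159, 3 of each, 9 of the 18 libraries in all, and every gene model with enough counts, 52268 of 107233. The remaining 9 libraries are from R4168, R4210 and R4817, which carry haplotype 2, and they serve here as a reference that the comparison did not use. All plants were grown in the field, shoot apices were the labelled tissue, no treatment, age or date is given, and the libraries were poly(A)-selected RNA-seq. Nothing in the labels tells if libraries of the same accession are separate plants, so p-values reflect only how these libraries varied, and that variation may be technical. A difference between R5161 and its sisters concerns these accessions and not their haplotype. The labels do not say whether plants of an accession were genetically alike, and R5044 libraries differed from each other in whole stretches of chromosomes, as described with A09, C09 and C02.

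Oilseed rape is an allotetraploid: it holds a set of A chromosomes from a Brassica rapa ancestor and a set of C chromosomes from a Brassica oleracea ancestor. Most genes therefore have an A and a C copy on related (homoeologous) chromosomes, such as A01 and C01, A02 and C02, or the first parts of A09 and C09. Related chromosomes can exchange or replace segments in Brassica napus, and accessions are known to differ in such segments and in the presence of single genes. LEAFY encodes a transcription factor that gives floral identity to the meristems on the flanks of the shoot apex. The gene identifiers give a chromosome and a running gene number but no gene name, and none of the identifiers matched a name table of 123214 entries (0 matches). For this reason markers of the apex, the LFY copies and functional gene lists were not analysed here, positions are gene numbers along a chromosome, and no sequence is shown.

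R5161 libraries held 36072403 ± 5714370 counts (SD, n = 3), against 34785659 ± 1691610 in R5044 and 29260082 ± 3279037 in R5159. The difference in total between R5161 and the 6 sister libraries had an exact two-sided permutation p of 0.238. Within accessions the biological coefficient of variation was 0.25 in R5161, 0.234 in R5044 and 0.393 in R5159, so R5159 was the least even accession. The numbered libraries of an accession were not alike in rank. Where replicates 1 and 2 of R5161 differed by at least 4-fold, replicate 3 lay between them in 364 of 366 genes (99.5%), and the same held for 216 of 218 genes (99.1%) in R5044 and 180 of 189 (95.2%) in R5159. Replicates 1 and 2 lay between the other 2 in 106 of 190 and 127 of 209 such genes in R5159. In R5161 these counts were 7 of 62 and 2 of 7, and in R5044 2 of 70 and 3 of 9. Across all 6 accessions, 264 genes had at least 10 CPM (counts scaled by the library total) in one library and 0 counts in another of the same accession. R4817 had 148 of them, R5044 51, R5159 38, R4210 11, R4168 9 and R5161 7. The library at 0 was replicate 1 in 81 of the 264 genes, replicate 2 in 183 and replicate 3 in 0. The labels do not say whether replicate 3 shares material with the others, and whether it does was not tested. The main counts are therefore also given from replicates 1 and 2 alone.

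R5161 apices differed from the mean of the R5044 and R5159 apices in 11924 of 52268 genes, a share of 22.8% (edgeR's quasi-likelihood test, Benjamini-Hochberg adjusted p under 0.05). In R5161, 6386 genes were higher (12.2%) and 5538 lower (10.6%). With a change of at least 2-fold as well, 4222 genes were higher (8.08%) and 3614 lower (6.91%). Against R5044 alone 10632 genes differed (20.3%), 5203 higher in R5161 (9.95%) and 5429 lower (10.4%). Against R5159 alone 10704 differed (20.5%), 5033 higher (9.63%) and 5671 lower (10.8%). The sisters differed from each other in 8996 genes (17.2%), a share not far below those that involve R5161. These pairs share libraries, so their counts are set side by side only.

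A difference from the mean can come from 1 sister, so a gene was said to stand apart when R5161 differed from both sisters, in the same direction, each at an adjusted p under 0.05 in the same edgeR fit. R5161 stood apart in 5084 genes (9.73%). It was above both sisters in 1995 of them (3.82%) and below both in 3089 (5.91%). The median log2 difference from the sisters' mean, with sums under 3 counts set to 3, was 2.21 for genes above both sisters and -2.40 for genes below both. More than 8-fold separated R5161 from the sisters' mean in 859 genes standing above and 1352 standing below, while 406 and 574 changed by less than 2-fold. From replicates 1 and 2 alone, 7554 genes differed from the mean and 3219 stood apart, 1190 above and 2029 below. R5159 replicate 3 differed from replicates 1 and 2 by a chi-square per degree of freedom of 44.9 and 39.7, against 17.5 between replicates 1 and 2. Without it 14333 genes differed from the mean and 5971 stood apart. R5161 replicate 1 differed from replicates 2 and 3 by 39.1 and 24.5, against 12.7 between replicates 2 and 3. Without R5161 replicate 1, 8609 genes differed from the mean and 3880 stood apart. Between R5044 replicates 1 and 2 the chi-square per degree of freedom was 31.7. With the accession as the replicate, as 1 summed profile against 2, edgeR called 0 genes, and 3699 had an unadjusted p under 0.05.

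The excess of genes below over genes above both sisters was smallest among weakly expressed genes. Among genes with a mean under 1 CPM, 3.78% stood above and 4.20% below both sisters. Among genes at 100 CPM or more these shares were 3.71% and 6.72%. The share above both sisters thus stayed between 3.71% and 3.90% in all classes of level, and the share below was smallest in the lowest class. Genes standing apart made up a larger share of the A than of the C subgenome: 4.41% of 24986 A genes against 3.30% of 26720 C genes were above both sisters, and 6.54% against 5.40% below both. Genes are not independent of their neighbours, as the next paragraphs show, so these shares carry no test.

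The summed A-subgenome share of R5161 lay between those of its sisters. A genes held 48.7% ± 0.0492 of the chromosome counts in R5161, 49.1% ± 0.659 in R5044 and 47.5% ± 0.251 in R5159, and the difference of 0.376 percentage points had an exact two-sided permutation p of 0.595. Without chromosomes A02 and C02 the R5161 share was higher by 1.26 points, and without A01, A02, A09, C01, C02 and C09 it was higher by 0.323 points, 45.7% against 45.4% in each sister. In both of these the 3 R5161 libraries lay above all 6 sister libraries, with an exact permutation p of 0.0238, the smallest that 3 against 6 libraries can give. R5161 had 48738 ± 2033 genes with at least 10 counts, against 48856 ± 152 in R5044 and 47337 ± 865 in R5159, with an exact permutation p of 0.524. Thinned to the lowest total, R5161 had 46783 ± 1024 such genes, against 47063 ± 311 and 46601 ± 662, and the p was 0.905.

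Differences were spread unevenly over the 19 chromosomes. C02 had the highest share of genes above both sisters, 359 of 2390 (15.02%, against 3.82% over all tested genes), and 978 of its genes (40.9%) were above the sisters' mean. C09 had the highest share below both, 358 of 3190 genes (11.2%, against 5.91% over all tested genes), followed by A02 with 235 of 2271 (10.3%). A09 had 293 genes above both sisters (7.36%) and A08 had 110 (5.90%). C07 had few genes standing apart, 53 above and 62 below both sisters of 2841 (1.87% and 2.18%). In summed counts C02 held 3.74% ± 0.106 of the chromosome counts in R5161, against 2.25% ± 0.948 in R5044 and 3.20% ± 0.0676 in R5159. C09 held 5.33% ± 0.0794 in R5161, against 5.74% ± 0.109 and 6.73% ± 0.0263. On A02, A06, A08, A09, C02, C07 and C09 the 3 R5161 shares did not overlap with the 6 sister shares. Each of these 7 chromosomes had an exact permutation p of 0.0238, which was 0.0646 after Benjamini-Hochberg adjustment over 19 chromosomes and so did not pass the threshold. These p-values too treat libraries nested in accessions as exchangeable.

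**Figure D1:**
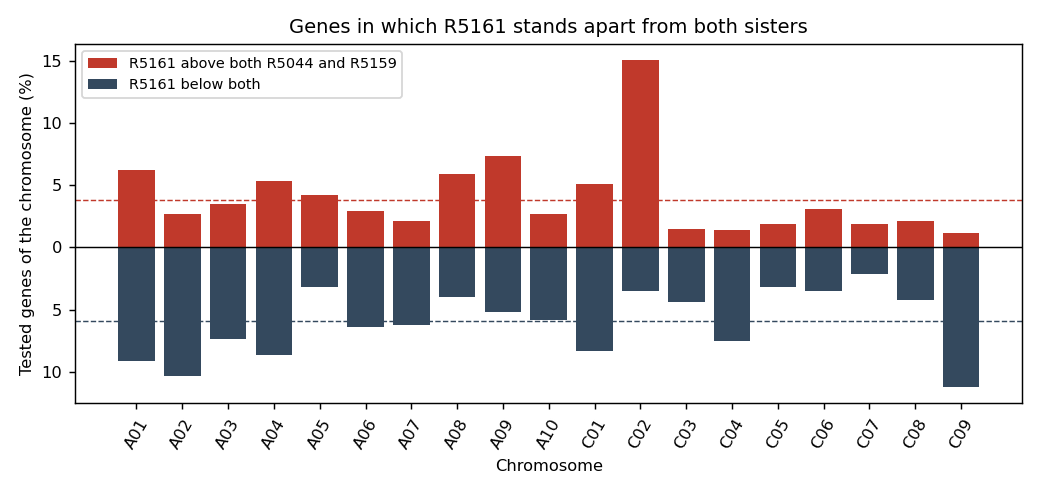
Bars show the percentage of the tested genes of each chromosome in which R5161 stood above both sisters (upward, red) or below both (downward, dark blue), with dashed lines at the shares over all tested genes, 3.82% and 5.91%. C02 reaches 15.02% above and C09 reaches 11.2% below.

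The bar plot of shares by chromosome does not tell single genes from whole stretches, so gene order was used. Each chromosome was divided into blocks (windows) of 100 gene numbers, and blocks that held 15 or more tested genes were kept. A window counted as shifted if its median log2 fold change, centred on that of all genes, was at least 0.5 in size against both sisters with the same sign. Of 967 windows, 45 were shifted: 22 higher in R5161, on 6 chromosomes, and 23 lower, on 8 chromosomes. Adjoining ones formed 30 stretches. From replicates 1 and 2 alone there were 46 such windows, 22 higher and 24 lower. The 45 windows held 4.29% of the tested chromosome genes, but 24.2% of the genes above both sisters (481) and 23.01% of those below both (708). By the same threshold against the sisters' mean alone, 94 windows were shifted, with 9.16% of the tested chromosome genes. They held 34.5% of the genes above both sisters and 30.9% of those below both. Most genes that set R5161 apart lay outside the 45 windows, where 3.04% of genes stood above and 4.79% below both sisters. Lying outside did not mean being scattered. The genes standing apart there had neighbours of the same kind more often than the share of all genes. Of the genes outside windows that stood above both sisters, 18.4% were followed by another one (3.04% of all tested genes there), and of those below both, 21.1% were (4.79% of all there).

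The windows were found from the same fold changes, so the summed levels given for them are descriptions with no test. Levels of a stretch are sums of CPM over all its gene models. Reads from similar A and C copies may have been counted to either, and this limit applies to every stretch described. A gene also enters the test when 1 accession alone has enough counts. Where a stretch is near silent in R5161 or in both sisters, its genes entered through the other side, so a high share of tested genes standing apart is set in part by that filter and is a description only.

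The start of C09 was the most altered stretch that was lower in R5161. Over C09 genes 101 to 300, the R5161 libraries summed to 366, 386 and 393 CPM. R5044 libraries reached 2112, 4286 and 3208 CPM, and R5159 libraries 2158, 2358 and 2070 CPM. Every sister library was thus more than 5-fold above every R5161 library, and R5044 was uneven. R5161 stood below both sisters in 103 of the 113 tested genes there. At least 1 CPM was reached by 33 ± 1 genes in R5161, by 101 ± 2.31 in R5044 and by 98.7 ± 2.08 in R5159. In haplotype 2, R4210 summed to 371 ± 27.8 CPM, close to R5161, whereas R4168 reached 2056 ± 30.9 and R4817 2028 ± 403. R4210 was close in this sum only, since 49 ± 1.73 of its genes reached 1 CPM, more than in R5161.

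From C09 gene 301 on, R5161 and R5044 were both low beside R5159, and R5161 was the lower of them in part of the stretch. Over genes 301 to 1500 R5161 held 1564 ± 32.2 CPM, R5044 2188 ± 247 and R5159 14050 ± 467. R5161 was below both sisters in 186 of 604 tested genes, and in 294 of the genes it was within 2-fold of R5044 after centring on all genes. Of the 12 windows there, genes 601 to 700, 801 to 1000 and 1101 to 1200 were shifted below both sisters. Over genes 801 to 900 R5161 held 23.7 ± 2.86 CPM, R5044 123 ± 11.6 and R5159 1059 ± 86.2. Over genes 901 to 1000 the values were 48.5 ± 0.169, 186 ± 8.06 and 947 ± 68.3 CPM, so R5161 was low against R5044 as well. R4168 of haplotype 2 was near R5161 in both windows, at 28.1 ± 0.449 and 61.6 ± 3.4 CPM. R4210 held 448 ± 14.7 and 813 ± 27.7 CPM there, and R4817 968 ± 41.1 and 850 ± 103. Over genes 1201 to 1300 R5161 (168 ± 5.43 CPM) and R5044 (161 ± 5.64 CPM) were at one level. Over genes 1501 to 1600 R5161 was again alone among haplotype 1 accessions, at 233 ± 5.53 CPM against 774 ± 6.55 in R5044 and 810 ± 45.6 in R5159, and it stood below both in 32 of 51 tested genes. R4210 was again close to R5161 there, at 265 ± 9.1 CPM. Past gene 1600 the difference ended: genes 1601 to 1700 held 982 ± 30.6 CPM in R5161, 1085 ± 3.7 in R5044 and 1055 ± 62.2 in R5159.

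On A09, which is related to this part of C09, R5161 was at the upper end in most windows. Over A09 genes 501 to 1400 R5161 summed to 18167 ± 123 CPM and R5044 to 17548 ± 339, both above R5159 with 10101 ± 194. In haplotype 2, R4210 reached 15159 ± 567 CPM, R4168 9272 ± 74.8 and R4817 9008 ± 48.2. Genes 601 to 700 within that stretch went the other way, with 881 ± 43.9 CPM in R5161, 2408 ± 476 in R5044 and 1475 ± 138 in R5159. R4168 (700 ± 323 CPM) and R4817 (917 ± 87.5 CPM) were near R5161 there, and R4210 held 2176 ± 536. Over genes 1401 to 1500 R5161 was alone among haplotype 1 accessions in being high, with 1744 ± 28.4 CPM against 1021 ± 13.3 in R5044 and 962 ± 33.2 in R5159. R4210 of haplotype 2 was as high, at 1787 ± 49.9 CPM, while R4168 held 1086 ± 16.7 and R4817 1233 ± 73.7. Of 67 tested genes there, 22 stood above both sisters. Over genes 301 to 500 R5161 libraries held 3248, 3555 and 3429 CPM and R5159 libraries 2170, 1731 and 1840. R5044 libraries held 2181, 556 and 1314 CPM, and of 131 tested genes 7 stood above and 2 below both sisters. The R5044 library that was lowest on A09 here was the highest over C09 genes 101 to 300.

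Summed over C09 genes 101 to 1600 and A09 genes 201 to 1500, the accessions differed far less than on either chromosome alone. R5161 held 28488 ± 472 CPM in the 2 stretches together and R5044 28057 ± 335. R5159 held 32261 ± 686. In the C09 stretch alone R5161 held 2179 ± 42.1 CPM, R5044 6164 ± 1340 and R5159 17054 ± 653. In the A09 stretch alone the order was reversed, with 26309 ± 447, 21893 ± 1642 and 15206 ± 379.

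**Figure D2:**
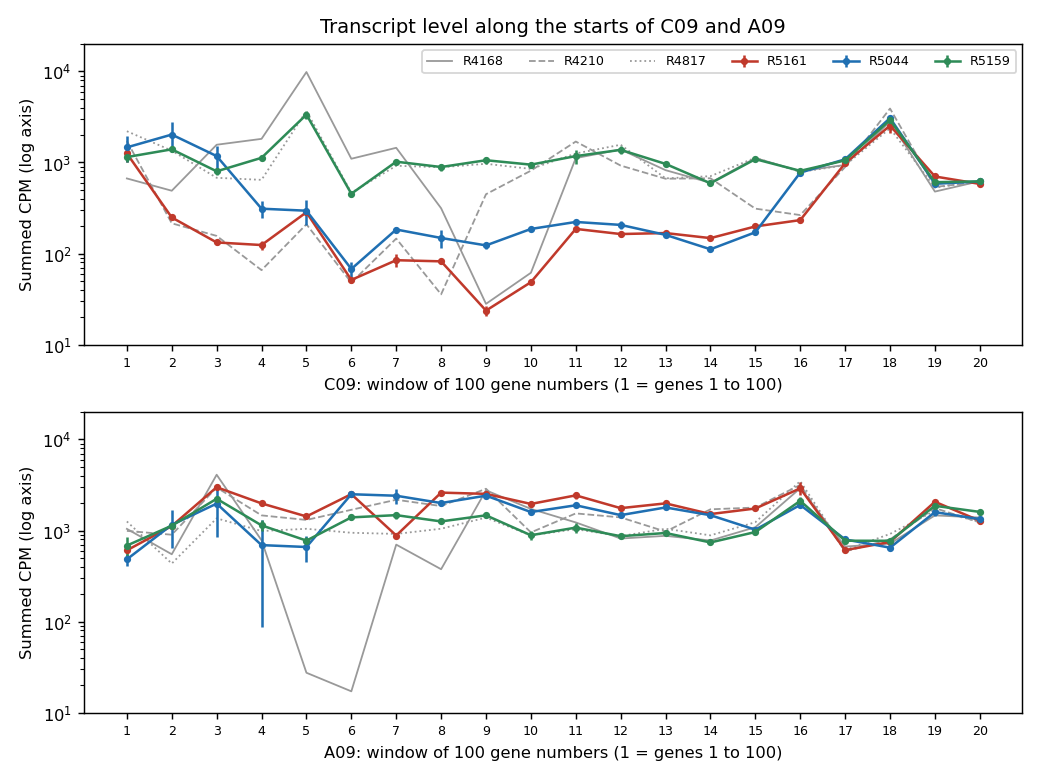
Summed CPM (log axis) of the gene models in each window of 100 gene numbers along the starts of C09 (top) and A09 (bottom); colored points are means of 3 libraries with SD bars for R5161, R5044 and R5159, and grey lines are the means of the haplotype 2 accessions. R5161 lies below both sisters in C09 windows 2, 3 and 16, below R5044 or near it between them, and lies above both sisters in A09 window 15.

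The start of C02 was higher in R5161 than in either sister. Over C02 genes 1 to 1000 R5161 libraries summed to 3436, 3520 and 3500 CPM. R5044 libraries held 670, 1009 and 822 CPM, and R5159 libraries 333, 242 and 261. R5161 stood above both sisters in 159 of 311 tested genes and below both in 7. The level of R5161 was itself low over most of that stretch. Haplotype 2 accessions held 11766 ± 305 (R4168), 12654 ± 404 (R4210) and 11666 ± 424 CPM (R4817) over the same genes, more than 3-fold above R5161.

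The stretch consisted of parts with different R5161 levels. Over C02 genes 1 to 100 R5161 held 354 ± 42.5 CPM, R5044 54.05 ± 5.16 and R5159 8.18 ± 0.85. Over genes 201 to 400 R5161 held 295 ± 2.33 CPM, R5044 27.5 ± 5.36 and R5159 3.47 ± 0.279. Of 211 gene models in this part 41 were tested, and 36.3 ± 1.15 reached 1 CPM in R5161, 5.33 ± 0.577 in R5044 and 1 ± 0 in R5159. Haplotype 2 accession means lay between 1462 and 1904 CPM in these 2 parts. Over genes 101 to 200, in contrast, R5161 (132 ± 8.21 CPM) and R5044 (144 ± 27.2 CPM) overlapped. The step lay where the window of genes 801 to 900 met that of genes 901 to 1000. In genes 801 to 900 R5161 held 124 ± 11 CPM, with haplotype 2 means of 456 to 505. In genes 901 to 1000 R5161 held 1747 ± 85.6 CPM, within the haplotype 2 means of 1687 to 1960. R5044 (179 ± 23.3 CPM) and R5159 (83.2 ± 41.6 CPM) stayed low there, and R5161 stood above both in 42 of 54 tested genes.

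Beyond gene 1000 the sisters left the low level at different places. R5161 was again well below the haplotype 2 means over genes 2501 to 2600. Over C02 genes 1001 to 1400 R5159 held 4819 ± 199 CPM and R5161 6041 ± 231, while R5044 held 1247 ± 180 and haplotype 2 means were 4097 to 4608. Over genes 1401 to 1700 both sisters were low, R5044 at 556 ± 51 CPM and R5159 at 486 ± 48.8. R5161 held 2366 ± 112 CPM there, beside haplotype 2 means of 2379 to 2717, and stood above both sisters in 91 of 125 tested genes and below both in 0. Over genes 1701 to 2700 R5044 alone was low, at 898 ± 150 CPM, against 6823 ± 209 in R5161, 7515 ± 108 in R5159 and 8013 to 9064 in haplotype 2 means. Within that stretch, genes 2501 to 2600 held 363 ± 13.8 CPM in R5161, 39.2 ± 2.61 in R5044 and 542 ± 93.8 in R5159. Haplotype 2 means were 1160 to 2418 CPM in this window.

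Further along C02 the libraries of R5044 differed from each other more than R5161 differed from R5159. Over C02 genes 2701 to 4000 R5044 libraries summed to 4405, 11664 and 8101 CPM. R5161 libraries held between 7362 and 7407 CPM, and R5159 libraries between 7787 and 8120. Over A02 genes 2001 to 4500 the R5044 libraries held 19379, 10398 and 14798 CPM, in the opposite order. Tests against R5044 on these chromosomes rest on that spread.

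On A02 the single shifted window was genes 1201 to 1300. R5161 held 850 ± 40.1 CPM there and R5159 2157 ± 126. R5044 libraries held 1333, 2049 and 1609 CPM. All 6 sister libraries were above all 3 of R5161, and 25 of 58 tested genes stood below both sisters. Haplotype 2 means were 772 to 914 CPM, next to R5161. Over A02 genes 1 to 800 R5161 held 17358 ± 339 CPM, R5044 18629 ± 2325 and R5159 21680 ± 1039, and here R5161 and R5044 overlapped.

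**Figure D3:**
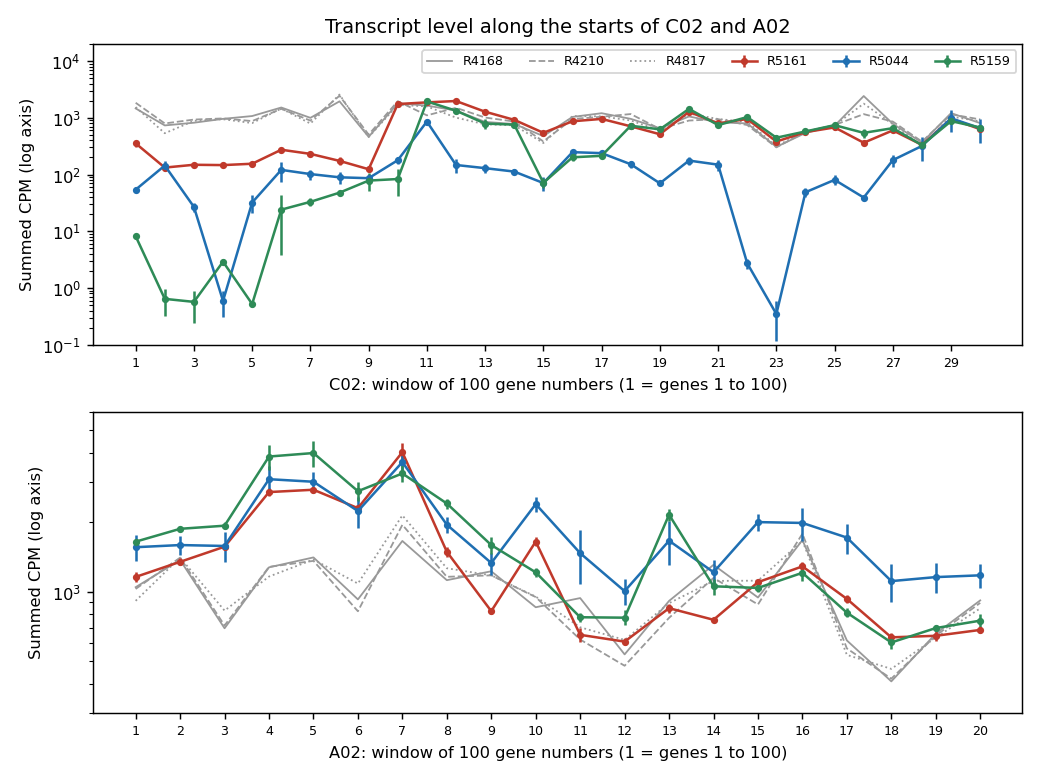
Summed CPM (log axis) in each window of 100 gene numbers along the starts of C02 (top) and A02 (bottom); colored points are means of 3 libraries with SD bars for R5161, R5044 and R5159, and grey lines are haplotype 2 accession means. R5161 lies between its sisters and haplotype 2 over most of C02 windows 1 to 9, within or above the haplotype 2 means in windows 10 to 15, well below them in window 26, and at the haplotype 2 level in A02 window 13 where both sisters are higher.

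Chromosomes A01 and C01 carried a chain of short stretches near their ends. On A01, genes 3201 to 3300 summed to 228, 220 and 228 CPM in the R5161 libraries, 1727, 1726 and 1697 in R5044, and 1660, 1613 and 2012 in R5159. R5161 was alone at the low level, since haplotype 2 means were 1237 to 1366 CPM. Of 51 tested genes 24 stood below both sisters. On C01, genes 4001 to 4100 held 3200 ± 244 CPM in R5161, 1763 ± 13.3 in R5044, 1798 ± 94.4 in R5159 and 1159 to 1324 in haplotype 2 means, and 24 of 58 tested genes stood above both sisters. R5161 was the highest accession in the C01 window and the lowest in the A01 window. Whether the genes of these windows are copies of each other was not tested.

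Over A01 genes 3601 to 3800 R5159 had few transcripts, at 36.7 ± 4.82 CPM. R5161 held 3291 ± 34.1 CPM and R5044 2463 ± 13.2, and 41 of 111 tested genes stood above both sisters. The next stretch, genes 3801 to 4100, went the other way. R5161 libraries held 1544, 1659 and 1622 CPM there, against 4477 ± 111 in R5044 and 4263 ± 162 in R5159, and 92 of 153 tested genes stood below both. Haplotype 2 was uneven there and reached below R5161. R4168 held 2299 ± 34.1 CPM, R4210 libraries from 1281.5 to 2455 and R4817 libraries from 1248.5 to 3877.

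On C01, R5161 was below both sisters over genes 4401 to 4600, with 661 ± 7.36 CPM against 1953 ± 36 in R5044 and 3661 ± 68 in R5159. There 72 of 103 tested genes stood below both. It was below both again over genes 4701 to 4800 and 4901 to 5000, with 31 of 47 and 28 of 55 tested genes. Between and after these it was above both. Genes 4801 to 4900 held 1064 ± 46.8 CPM in R5161, 435 ± 9.44 in R5044 and 391 ± 24.1 in R5159, and 11 of 39 tested genes stood above both. Genes 5001 to 5100 held 1547 ± 31.3, 885 ± 22.4 and 1174 ± 31.7 CPM. Haplotype 2 accessions were themselves uneven in these C01 stretches, with an SD of 918 CPM around the R4817 mean of 2139 over the last of them.

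**Figure D4:**
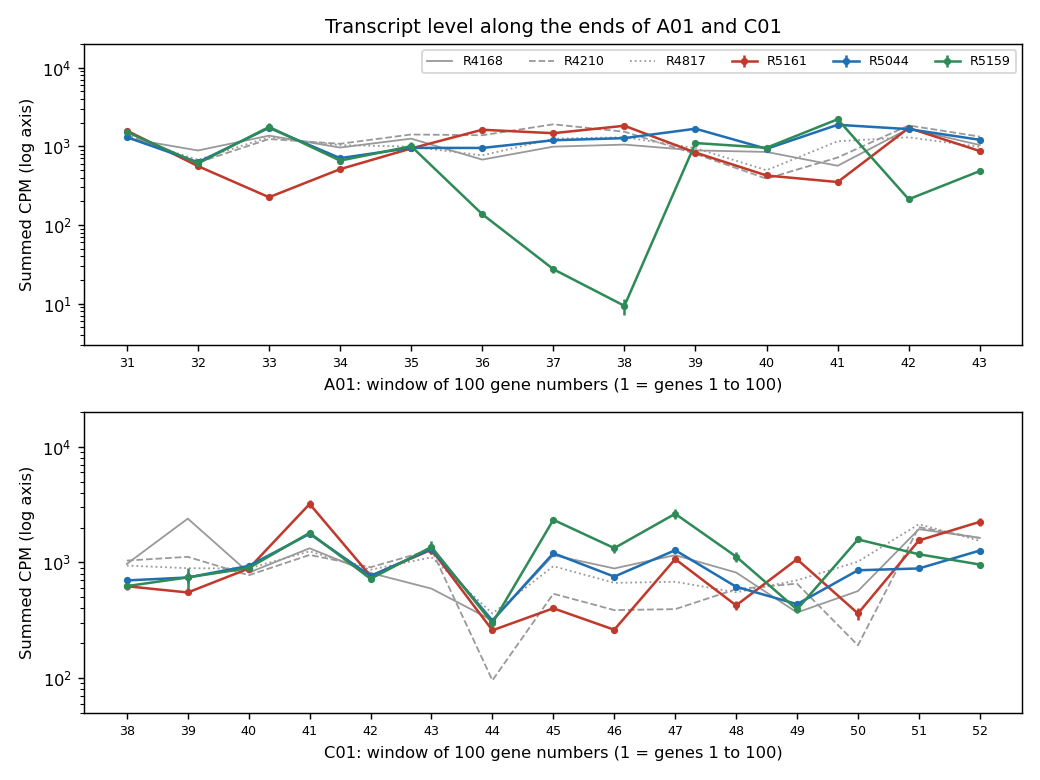
Summed CPM (log axis) in each window of 100 gene numbers near the ends of A01 (top) and C01 (bottom); colored points are means of 3 libraries with SD bars for R5161, R5044 and R5159, and grey lines are haplotype 2 accession means. R5161 alone is low in A01 window 33 and alone is high in C01 window 41, and on C01 it alternates below and above its sisters from window 45 on.

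Single windows were shifted on other chromosomes as well. On C04, genes 101 to 200 summed to 173, 170 and 178 CPM in R5161. R5044 held 774 ± 17.1 CPM, R5159 732 ± 50.2, and haplotype 2 means were 828 to 966. R5161 stood below both sisters in 47 of 59 tested genes and was the only accession at the low level. On A05, genes 101 to 200 held 1357 ± 74.3 CPM in R5161, 694 ± 28.4 in R5044, 697 ± 18.4 in R5159 and 671 to 732 in haplotype 2 means. R5161 was alone at the high level, in 30 of 60 tested genes above both sisters and in 0 below both.

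Near the end of C04, genes 5301 to 5400 held 204, 263 and 253 CPM in R5161, 1388 ± 30.6 in R5044 and 1550 ± 51.5 in R5159, and 44 of 51 tested genes stood below both. Haplotype 2 was split there: R4168 held 1584 ± 50.4 CPM, whereas R4210 with 529 ± 47.5 and R4817 with 350 ± 38.1 were nearer to R5161. On A04, genes 2201 to 2300 held 1997 ± 240 CPM in R5161, 1266 ± 5.66 in R5044 and 914 ± 64.9 in R5159. Of 59 tested genes there, 18 stood above both sisters and 5 below both. Haplotype 2 means were 1164 to 1489 CPM.

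Toward the end of A09 a pair of nearby windows moved in opposite directions. Genes 6901 to 7000 held 1147, 1155 and 1128 CPM in R5161, and between 51.7 and 59.1 CPM in all 6 sister libraries. At least 1 CPM was reached by 46 ± 2 of 106 gene models in R5161, by 8.33 ± 0.577 in R5044 and by 8 ± 1 in R5159. The R5161 level was above the haplotype 2 means of 823 to 982 CPM. Genes 7101 to 7200 held 1218 ± 50.5 CPM in R5161 and 2139 ± 24.3 and 2207 ± 97.7 in R5044 and R5159. Haplotype 2 means were 981 to 1033 CPM, so in both windows R5161 lay nearer to haplotype 2 than its sisters did. The remaining shifted windows were on A03 and C03. A03 genes 5701 to 5800 held 71.6 ± 20.7 CPM in R5161 against 124 ± 8.43 in R5044 and 139 ± 1.89 in R5159. A03 genes 5301 to 5500 held 1730 ± 69.5 CPM in R5161 against 2193 ± 41.6 and 2109 ± 65.7, and C03 genes 1401 to 1500 held 604 ± 29.9 against 758 ± 29.9 and 807 ± 40.8.

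**Figure D5:**
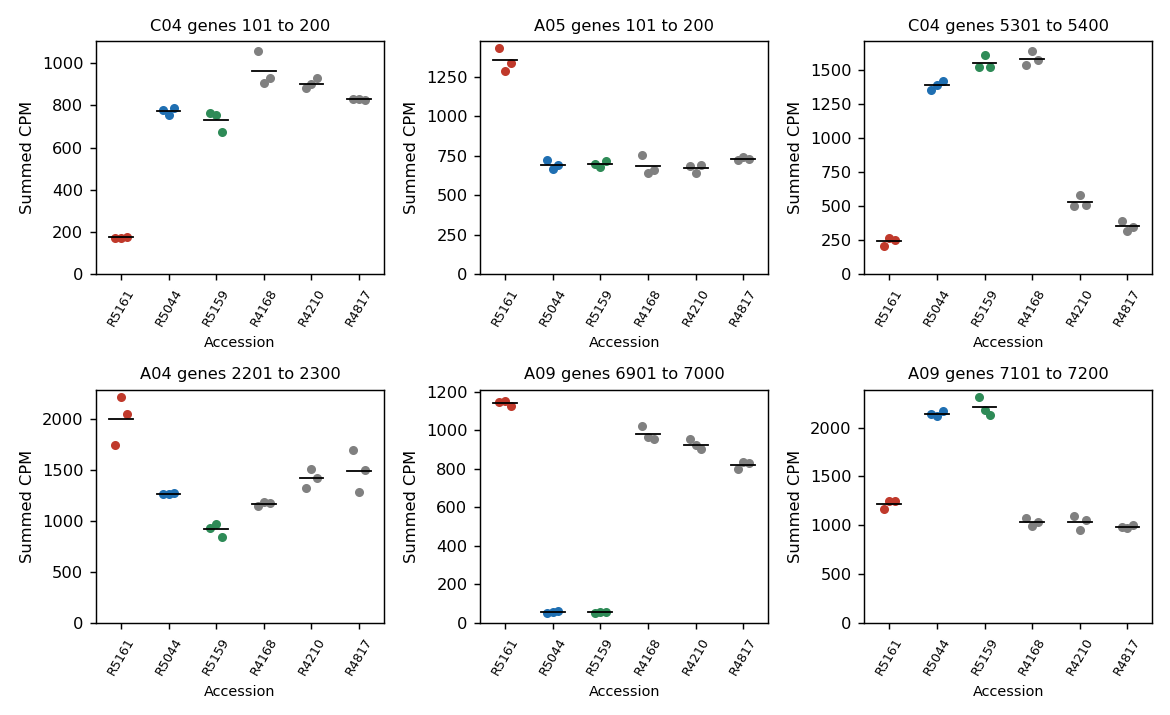
Summed CPM in 6 windows of 100 gene numbers, with 1 point per library and a bar at the mean of each accession (n = 3 libraries; axes start at 0). R5161 is the lowest accession in both C04 windows, alone is high in the A05 window, and is at the haplotype 2 side of its sisters in both A09 windows.

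Some of the differences were of the on or off kind. A gene was taken as all but silent with at most 3 counts over the libraries of the group and as expressed with at least 1 CPM in each library. Of the 107233 gene models, R5161 was all but silent in 300 that both sisters expressed, with a median sister level of 5.79 CPM. The same counts for R5044 or R5159 are not given here. R5161 expressed 208 genes, at a median of 3.06 CPM, in which both sisters were all but silent. Of the 300 genes, 204 lay on C chromosomes, 94 on A chromosomes and 2 on scaffolds, and of the 208, 126, 81 and 1. Tested genes numbered 26720 on C chromosomes, 24986 on A chromosomes and 562 on scaffolds. From replicates 1 and 2 alone these counts were 398 and 239, since fewer libraries have to meet the rule. Shifted windows, which were themselves chosen by fold changes of R5161 against its sisters, held 154 of the 300 genes and 80 of the 208.

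The 300 silent genes were most numerous on C09 (73), C01 (60), A01 (33) and C04 (27). The 208 genes expressed in R5161 were most numerous on C02 (78), A09 (30) and C01 (16). Tested genes numbered 3190 on C09, 2609 on C01, 2436 on A01, 3052 on C04, 2390 on C02 and 3981 on A09. In haplotype 2, 210 of the 300 genes and 109 of the 208 were neither expressed in all 9 libraries nor all but silent over them. This remainder can hold genes that are merely near the cut of 1 CPM, so it is not a count of genes that vary in haplotype 2. R4168 expressed 197 of the 300 genes, R4817 163 and R4210 131. All 9 haplotype 2 libraries expressed 81 of the 300 and 68 of the 208, and 31 of the 208 were all but silent in haplotype 2 as well, and so were expressed in R5161 alone among the 6 accessions.

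Haplotype 2, which took no part in the tests, lay nearer to R5161 in some stretches than in others. The mean of the haplotype 2 accessions was nearer to R5161 than to the sisters' mean, on log2(CPM + 0.1), in 42.9% of all tested genes and in 41.3% of those called against the mean. Among genes above both sisters the share was 48.4%. It was 75.1% for the 481 of them in shifted windows and 39.96% for those outside. Among genes below both sisters it was 36.3%, with 30.8% for the 708 in shifted windows and 37.97% outside. Of the 22 windows higher in R5161, 11 were on C02.

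The 2 highest and 2 lowest fold changes among genes standing apart were all genes with 0 counts in R5161 or in both sisters. BnaC01T0439300ZS, gene number 4393 on C01, had 46.3, 43.98 and 39.8 CPM in the R5161 libraries and 0 counts in all 6 sister libraries. Against a floor of 3 counts over the sister libraries it was at least 2764-fold higher (edgeR adjusted p = 2.9e-07). In haplotype 2 it had 0 counts in R4168 and R4210 and 29.6 ± 23.4 CPM in R4817. BnaC02T0092800ZS, number 928 on C02, lies just past the step at gene 901. It had 31.9, 30.1 and 31.9 CPM in R5161 and 0 counts in the sisters, at least 2012-fold higher (edgeR adjusted p = 3.39e-07), and 42.3 ± 7.46, 39.4 ± 0.95 and 41.6 ± 6.94 CPM in R4168, R4210 and R4817.

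The lowest fold changes belonged to BnaC01T0452100ZS and BnaA08T0226800ZS, both at 0 counts in R5161. BnaC01T0452100ZS, number 4521 on C01, lies in the stretch of genes 4401 to 4600. It had 39.9, 39.9 and 41.3 CPM in R5044 and 95.6, 74.0 and 104 CPM in R5159, and was at least 2311-fold lower in R5161 (edgeR adjusted p = 6.34e-08). BnaA08T0226800ZS, number 2268 on A08, lies outside the shifted windows. It had 54.7, 67.1 and 57.2 CPM in R5044 and 0, 68.5 and 38.3 CPM in R5159, so that 1 sister library overlapped with R5161. It was at least 1738-fold lower in R5161 than the sisters together (edgeR adjusted p = 0.00706). This call was lost with limma-voom (adjusted p = 0.398) and with replicates 1 and 2 alone (edgeR adjusted p = 0.111). In haplotype 2 it was at 42.6 ± 4.41 CPM in R4817, at 0 counts in R4168 and at 3 counts over the R4210 libraries.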

How the data were processed

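The deposited data are 1 table of raw, whole-number counts for each gene model, not normalized. Per the submitters' processing notes, HISAT2 2.2.1 and featureCounts were used; genome build, annotation, strandedness and the handling of multiply aligned reads: not given in the sources used here. Columns were assigned by names equal to the sample titles. The members, regions and rules were chosen with earlier results of these data known, and regions after the windows were seen.

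The 9 haplotype 1 libraries were fitted together in edgeR 4.0.16 (R 4.3.3), with TMM normalization, filterByExpr by accession and 1 coefficient per accession. The quasi-likelihood test contrasted R5161 with the mean of R5044 and R5159 and with each alone, and Benjamini-Hochberg adjustment ran over all 52268 tested genes. CPM scale the deposited counts by each library's total. For single values per library, exact permutation tests (two-sided) ran over the 84 splits of 3 against 6 libraries. These splits treat libraries as exchangeable, though they are nested in 3 accessions. Their p-values therefore do not tell how unusual R5161 is among accessions. Where a group had 0 counts, its sum was set to 3 as a floor, which covers counting error only. Named genes are the 2 highest and 2 lowest fold changes among genes standing apart with a mean of at least 1 CPM, since identifiers carry no gene names. No 2 libraries were identical: within accessions, counts of any pair differed with a chi-square per degree of freedom of 10.6 or more. On simulated counts for this comparison (51212 genes), 25 of 100 genes changed by 1 log2 unit and 100 of 100 changed by 2 were recovered, with 8 false calls. The simulation used 1 dispersion for all genes, sisters with equal means, and changed genes of at least 1 CPM. The real libraries were less even, so its recovery and false calls do not carry over to them. Recovery under the rule for standing apart was not scored. Alternatives used DESeq2 1.42.0 and limma 3.58.1; summaries used Python 3.11.15 with numpy 2.4.6, pandas 2.3.3 and scipy 1.17.1.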

Additional observations from a re-analysis of the deposited data

How the results depend on the processing

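Of the counts against the sisters' mean, 20 of 23 alternatives stayed within 1.5 times of 11924, and of the counts of genes standing apart, 19 of 20 within 1.5 times of 5084; DESeq2 gave 14558 and 6277. The exceptions were 7836 with a 2-fold minimum, 0 with accession sums as replicates, and 7554 and 3219 from replicates 1 and 2 alone, where fewer libraries were fitted. Same-numbered libraries of different accessions had correlated deviations from their accession means of -0.022 to 0.23. In R5161 and R5044, replicates 1 and 2 went together by number. Their correlations were 0.23 and 0.207 for same numbers and -0.232 and -0.215 for crossed ones. Pairs that involved R5159 lay between -0.052 and 0.077. What the numbers stand for was not tested. The main fit had no replicate block, and a replicate block gave 10972 and 4665 genes. Leaving out 1 library gave 8417 to 14333 and 3705 to 5971 genes. The A-subgenome difference ranged from 0.158 to 0.673 points and that in genes with 10 counts from -178.7 to 1779, none past the test. Without an R5161 library, 2 against 6 can give no p below 0.0714. The A-subgenome difference was 1.26 without A02 and C02 and 0.323 without 6 chromosomes, each at the smallest p of the exact permutation test. The limits stated with these 2 values apply. The cause was not tested. Shifted windows numbered 44 to 49 with 1 library left out, 110 and 26 with windows of 50 and 200 gene numbers, and 75 and 28 at thresholds of 0.3 and 1. Silent genes numbered 305 to 346 and genes expressed in R5161 only 216 to 230 with 1 library left out, and 192 and 123 at 2 CPM. The share nearer to haplotype 2 was 39.8% without shifted windows. The first 3 named genes passed in 18 of 18 alternatives and BnaA08T0226800ZS in 16 of 18. Alternatives chosen after seeing the data were those on replicates 1 and 2, on 6 chromosomes, on floored windows and on genes outside windows.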
